A study of Sus scrofa with 28 samples.

Results

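Respiratory chain subunits and the mitochondrial channel VDAC1 were followed in pig semimembranosus, a ham muscle, through every array probe whose annotation gave exactly 1 of the symbols COX7A1, COX7A2, COX8H, NDUFA4, NDUFB6 or VDAC1. That rule found 13 of the 4608 probes on the array, for 6 of the 211 genes that 509 probes with a single symbol stood for. NDUFA4 and COX8H had 4 probes each, COX7A1 had 2, and COX7A2, NDUFB6 and VDAC1 had 1. No probe was left out by a filter, so the values below account for all 13. The 6 genes were chosen by measured values, namely their fold changes between the groups, with the VDAC1 probe among those that passed the test over the whole array. Each difference between the groups is a description here and none is evidence of its own.

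The groups were 7 pigs with low L* values, called normal, and 7 pigs with high L* values, called destructured; L* is a reading of lightness that is higher in paler meat. No breed, age, sex or treatment of either group is given in the sources used here. The same label number appears on normal replicate 2 and destructured replicate 3. Whether these are 1 animal is not given, and they are counted here as separate pigs. Each pig's RNA was copied into radioactively labelled cDNA and hybridised to 1 nylon array that carried every probe in a left and a right part. The pig is the replicate (n = 7 in each group), and both parts read the same RNA. Values are log2 spot intensities after quantile normalization of the 28 columns, averaged over the 2 parts. A fold change is destructured minus normal on that scale.

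The respiratory chain sits in the inner mitochondrial membrane and passes electrons from NADH to oxygen while pumping the protons that drive ATP synthesis. Complex I takes up the electrons of NADH, and complex IV, cytochrome c oxidase, hands them to oxygen. Several small subunits of complex IV come in a form of heart and skeletal muscle and a form of other tissues, and oxidative slow fibres hold more mitochondria than glycolytic fast ones. VDAC1 lies outside the chain, in the outer membrane, where it lets ATP, ADP and small metabolites through. In a muscle homogenate a lower signal from fewer mitochondria-rich fibres cannot be told apart from less RNA per fibre.

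Limits of these arrays touch all 13 probes. Over all probes the left part of an array correlated with the right at a median r of 0.947 (14 pigs), but in normal replicate 3 the value was 0.373, and the next lowest was 0.869. Results are therefore also given without the right part of that array. Fold changes also differed with where a probe stands in the deposited table, which repeats as 6 rows of 12 columns. Over all probes the median was 0.081 in columns 2 to 7 and -0.11 in the other columns. Before normalization the arrays of normal pigs had a log2 median of 1.31 ± 0.306 (SD, n = 7) and those of destructured pigs 1.52 ± 0.161 (SD, n = 7). Gene names rest on an old platform annotation, and each gene below means the probe listed for it. Probes listed for the same gene correlated little between pigs, as given below, and whether the annotation assigns each probe to the right gene was not tested, so any gene name here may be wrong. No deposited value tells the signal from the background of a spot.

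Over the 13 probes no common shift was seen. Fold changes were positive for 7 and negative for 6, from -0.83 to 0.78 with a median of 0.030, where all 4608 probes had a median of -0.021. In the limma fit over all probes 1 of the 13 passed an adjusted p threshold of 0.05, the VDAC1 probe, where 0.651% of all probes passed. For none of the 13 were the groups free of overlap, which held for 1.28% of all probes (1.15% with destructured entirely above and 0.13% entirely below). The largest differences lay at opposite ends, VDAC1 higher and a COX8H probe lower in destructured muscle.

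**Figure D1:**
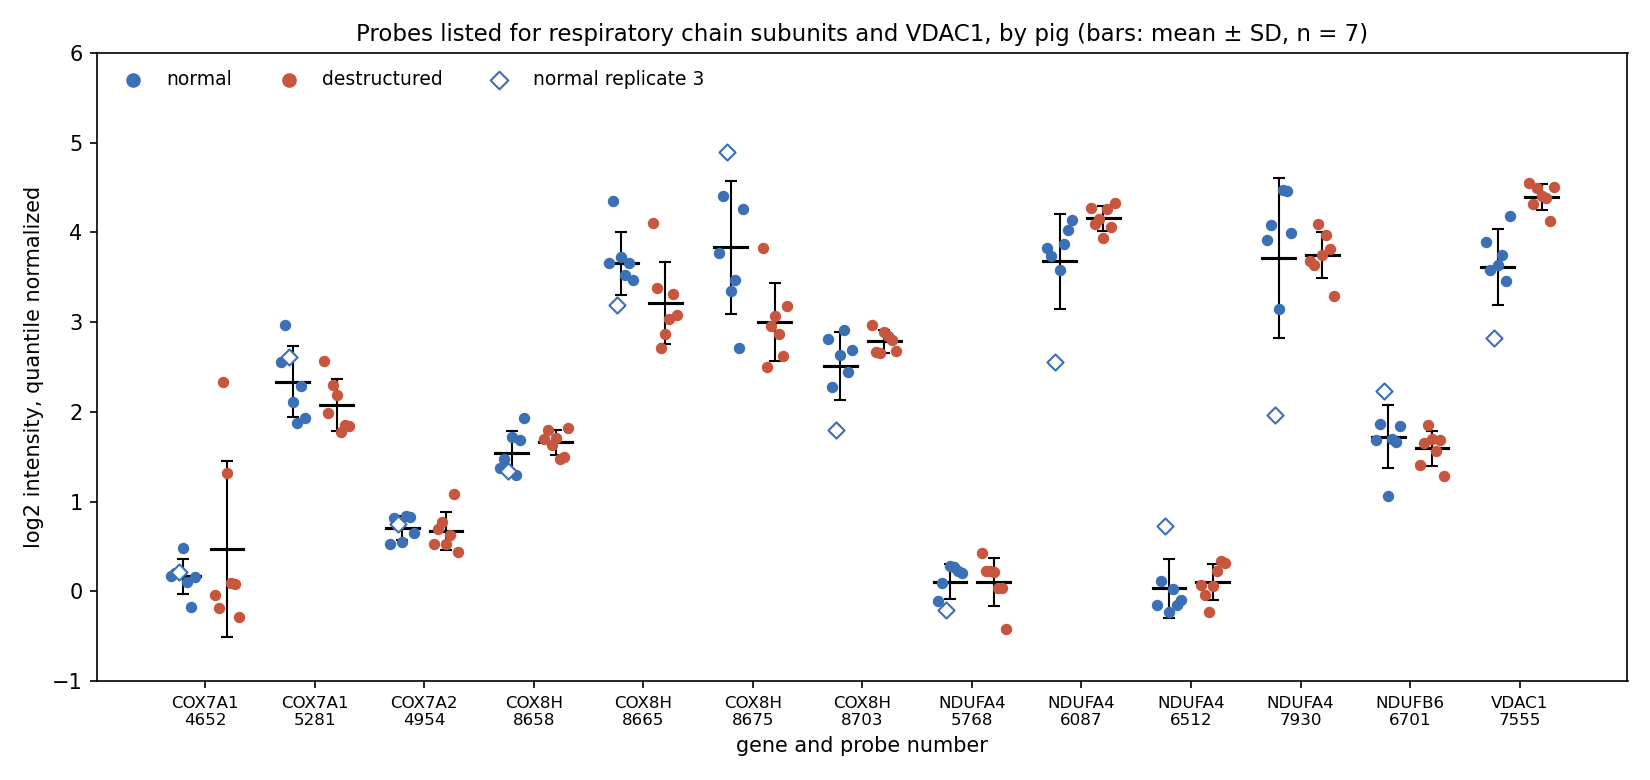
Log2 intensity (quantile normalized, y axis) of each of the 13 probes (x axis, gene and probe number) in 7 normal (blue) and 7 destructured (red) pigs; each point is a pig, bars are the mean ± SD, and the open diamond is normal replicate 3. For VDAC1 6 of 7 destructured pigs lie above every normal pig, for COX8H 8675 the destructured mean is 0.83 below the normal one, and in COX7A1 4652 2 destructured pigs stand far above the rest.

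VDAC1, the outer membrane channel, was represented by probe 7555. In the normal pigs, from replicate 1 to 7, its log2 intensity was 3.89, 3.58, 2.82, 3.63, 3.75, 3.46 and 4.19. In the destructured pigs it was 4.56, 4.32, 4.50, 4.41, 4.39, 4.12 and 4.50. All 7 destructured pigs lay above the normal mean and 6 of them above the highest normal pig, while destructured replicate 6 fell below normal replicate 7, so the groups overlapped by that 1 pair. The mean was 3.62 ± 0.423 in normal and 4.40 ± 0.145 in destructured muscle (SD, n = 7 each), a 1.72-fold difference (log2 fold change 0.78, SE 0.17, limma adjusted p = 0.0402). This adjusted p is the value that put VDAC1 among the called probes, and it was near the threshold.

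The lowest normal value of VDAC1 came from a single array part. In normal replicate 3 the left part read 3.65 and the right part 2.00. Without that right part the animal stood at 3.64, the normal mean at 3.73 ± 0.238 (SD, n = 7) and the fold change at 0.66 (SE 0.12, limma adjusted p = 0.00774), and 2.93% of all probes passed. A second normal pig, replicate 6, also differed between parts, its right part at 2.91 and its left part 1.09 higher. Over all pigs the standard deviation between parts for this probe was 0.457, and 0.348 without normal replicate 3. Read separately, the left parts gave a fold change of 0.55 (SE 0.15) and the right parts 1.01 (SE 0.29); neither passed over all probes (limma adjusted p = 0.121 and 0.262).

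The position of the VDAC1 probe, in table column 7, is one where fold changes ran high. The 64 probes at the same place in the repeating layout had a median fold change of 0.22. With position medians taken out of every column, VDAC1 was at 0.48 (SE 0.13), and with the right part of normal replicate 3 left out as well it was at 0.43 (SE 0.11). Neither passed (limma adjusted p = 0.141 and 0.0930), and in both the probe stayed higher in destructured muscle. The call also ended when any of 10 pigs was left out, namely normal replicates 2, 4, 5 and 6 and destructured replicates 1, 2, 3, 4, 5 and 7. Without them the fold change was between 0.75 and 0.81 and the limma adjusted p between 0.0606 and 0.103. It held without normal replicate 1, 3 or 7 or destructured replicate 6.

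**Figure D2:**
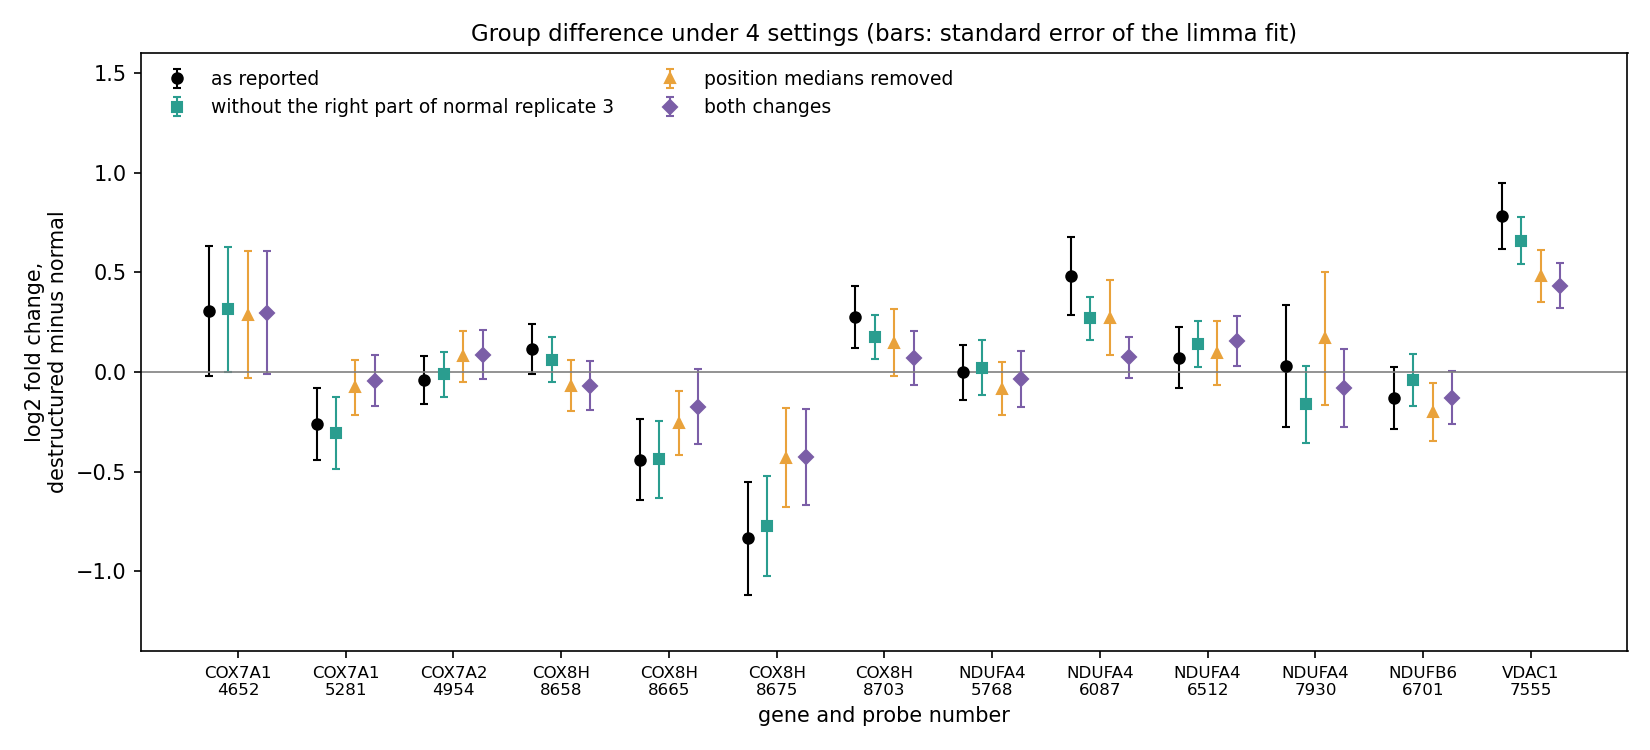
Log2 fold change, destructured minus normal (y axis), of each probe (x axis) as reported, without the right part of normal replicate 3, with position medians removed, and with both changes; bars are the standard error of the limma fit (n = 7 pigs in each group). VDAC1 stays above 0 in all 4, from 0.78 down to 0.43, and COX8H 8675 stays below 0 and moves from -0.83 to -0.43. COX7A2 4954, COX8H 8658, NDUFA4 5768 and NDUFA4 7930 change sign.

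COX8H encodes the heart and muscle form of subunit VIII, a small subunit of complex IV, and its 4 probes did not move as a unit. Probe 8675 read 3.77, 4.41, 4.89, 3.34, 3.47, 2.71 and 4.26 in normal replicates 1 to 7. In destructured replicates 1 to 7 it read 3.83, 2.50, 2.96, 3.07, 2.87, 2.62 and 3.18. Every destructured pig lay below the normal mean, but only 3 normal pigs lay above the highest destructured one, so the groups overlapped over most of their range. The means were 3.84 ± 0.739 and 3.00 ± 0.434 (SD, n = 7 each), a 1.78-fold lower value in destructured muscle (log2 fold change -0.83, SE 0.28), which did not pass.

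A second COX8H probe, 8665, was also lower, from 3.19 to 4.35 with a median of 3.66 in normal pigs and from 2.71 to 4.11 with a median of 3.08 in destructured pigs (log2 fold change -0.44, SE 0.20, not passing). In this probe 6 of 7 destructured pigs lay below the normal mean, and 4 lay below the lowest normal pig. Its array parts disagreed in many pigs, with a standard deviation between parts of 0.601 against a median of 0.385 over all probes. Destructured replicate 2, for example, read 2.45 on the left and 4.33 on the right.

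The remaining COX8H probes had positive fold changes. Probe 8703 was at 0.27 (SE 0.15), with normal pigs from 1.80 to 2.91 and destructured pigs from 2.65 to 2.97. All 7 destructured pigs exceeded the normal mean, which normal replicate 3 lowered with its 1.80. With the left part alone for that pig the fold change was 0.17 (SE 0.11). Probe 8658 was at 0.11 (SE 0.13), with normal pigs from 1.29 to 1.93 and destructured pigs from 1.48 to 1.82. The 2 negative probes lie in table columns 1 and 11 and the 2 positive ones in columns 3 and 6. Beside them, the median fold change of all probes at the same positions was -0.20 for 8665, -0.39 for 8675, 0.095 for 8703 and 0.11 for 8658. With position medians removed 8675 was at -0.43 (SE 0.25), 8665 at -0.26 (SE 0.16), 8703 at 0.15 (SE 0.17) and 8658, which changed sign, at -0.069 (SE 0.13).

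**Figure D3:**
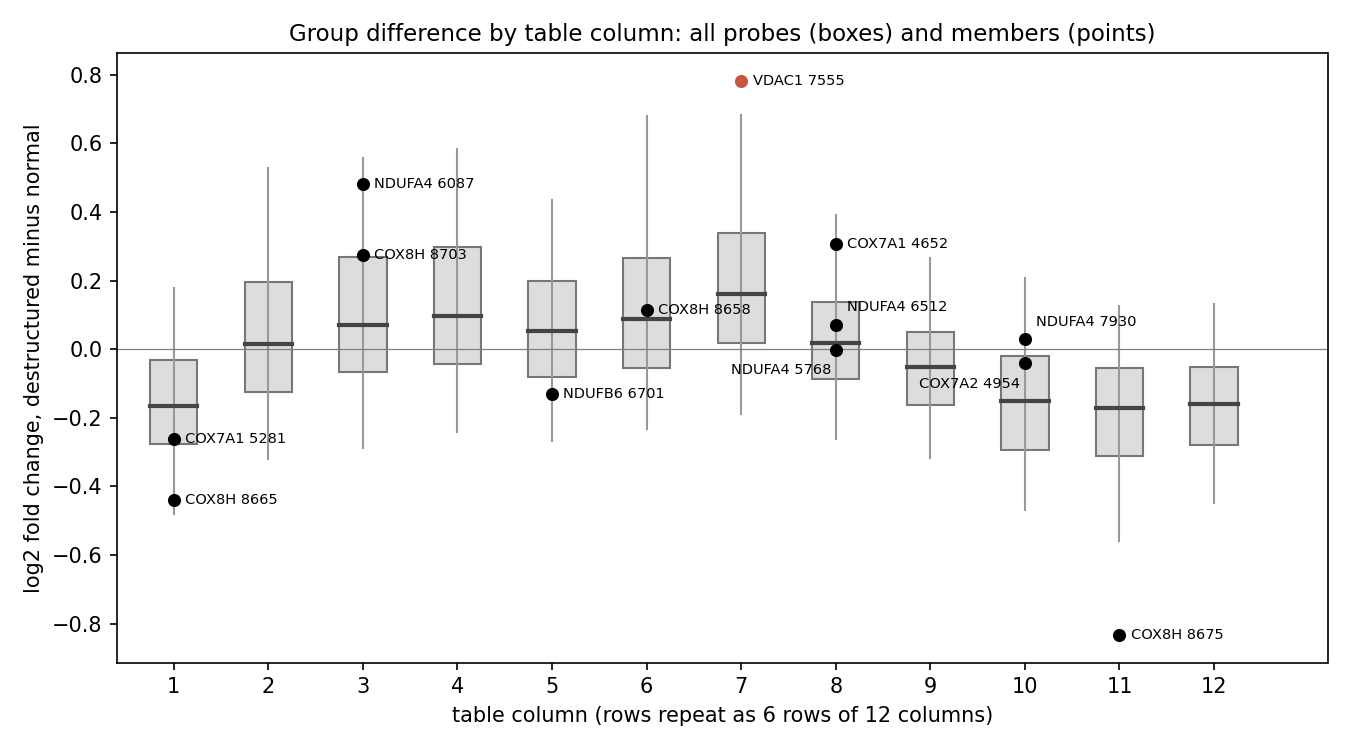
Log2 fold change, destructured minus normal (y axis), against the table column of a probe (x axis). Boxes span the middle of all 384 probes of a column from the lower to the upper quartile, thick lines are the medians and thin lines run between the 5% and 95% quantiles; points are the 13 probes, with VDAC1, the only one that passed, in red. Members in columns 1 and 11 lie low, as the boxes there do, and VDAC1 lies in column 7, which has the highest median (0.16).

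COX7A1 and COX7A2 encode the muscle form and the widely expressed form of subunit VIIa of complex IV. Probe 5281 of COX7A1 ranged from 1.88 to 2.97 with a median of 2.29 in normal pigs and from 1.78 to 2.56 with a median of 1.99 in destructured pigs (log2 fold change -0.26, SE 0.18). Of the destructured pigs 6 lay below the normal mean and 3 below the lowest normal pig. It shares its position with COX8H 8665, and with position medians removed its fold change was -0.077 (SE 0.14). The single COX7A2 probe, 4954, was at 0.71 ± 0.133 in normal and 0.67 ± 0.212 in destructured pigs (SD, n = 7 each), a difference of -0.041 (SE 0.12), which turned to 0.023 with median centring in place of quantile normalization.

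Probe 4652, the other one listed for COX7A1, had the widest spread in the set. Normal pigs lay between -0.17 and 0.49. In the destructured group 5 pigs lay between -0.29 and 0.097, while replicate 3 stood at 2.34 and replicate 4 at 1.32. Both high values came from the left part alone. There replicate 3 read 4.18 and replicate 4 read 2.42, while their right parts read 0.49 and 0.23, inside the range of the other pigs. The fold change of 0.31 (SE 0.33) over both parts was 0.74 (SE 0.56) in the left parts and -0.14 (SE 0.17) in the right parts. Without destructured replicate 3 it was -0.0015. COX7A1 probes thus gave 0.31 and -0.26, and neither passed.

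NDUFA4, first described as a subunit of complex I and since assigned to complex IV, had 4 probes. Its Entrez identifier in the annotation is listed as a pseudogene in the RefSeq table of the Sscrofa11.1 assembly, and those of the other 5 genes as protein coding. Probe 6087 read 3.83, 3.74, 2.55, 3.58, 3.87, 4.02 and 4.13 in normal replicates 1 to 7. In destructured replicates 1 to 7 it read 4.28, 4.09, 4.15, 3.94, 4.27, 4.06 and 4.33. The destructured pigs were the more uniform group, at 4.16 ± 0.14 against 3.68 ± 0.527 (SD, n = 7 each), and 4 of them exceeded every normal pig. The fold change was 0.48 (SE 0.19), not passing.

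Much of that spread came from normal replicate 3, which read 4.03 in the left part and 1.08 in the right. Without the right part the normal pigs stood at 3.88 ± 0.188 (SD, n = 7) and the fold change at 0.27 (SE 0.11). With position medians removed as well it was 0.073 (SE 0.10). For this probe the 2 parts agreed closely in the other 13 pigs, with a standard deviation between parts of 0.136.

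NDUFA4 probe 7930 behaved alike in that animal, with 3.30 on the left and 0.62 on the right. Its normal pigs ranged from 1.96 to 4.47 with a median of 3.99, and its destructured pigs from 3.29 to 4.09 with a median of 3.75. The fold change of 0.030 (SE 0.30) became -0.16 (SE 0.19) without that right part. Probes 6512 and 5768 were at 0.072 (SE 0.15) and -0.0012 (SE 0.14). Both were among the dimmest 25% of all probes. In 6512 normal replicate 3 was the highest normal pig, at 0.73, with the others from -0.23 to 0.11. Over the 4 NDUFA4 probes no fold change passed, and 3 were positive, or all 4 with median centring (5768 at 0.089).

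**Figure D4:**
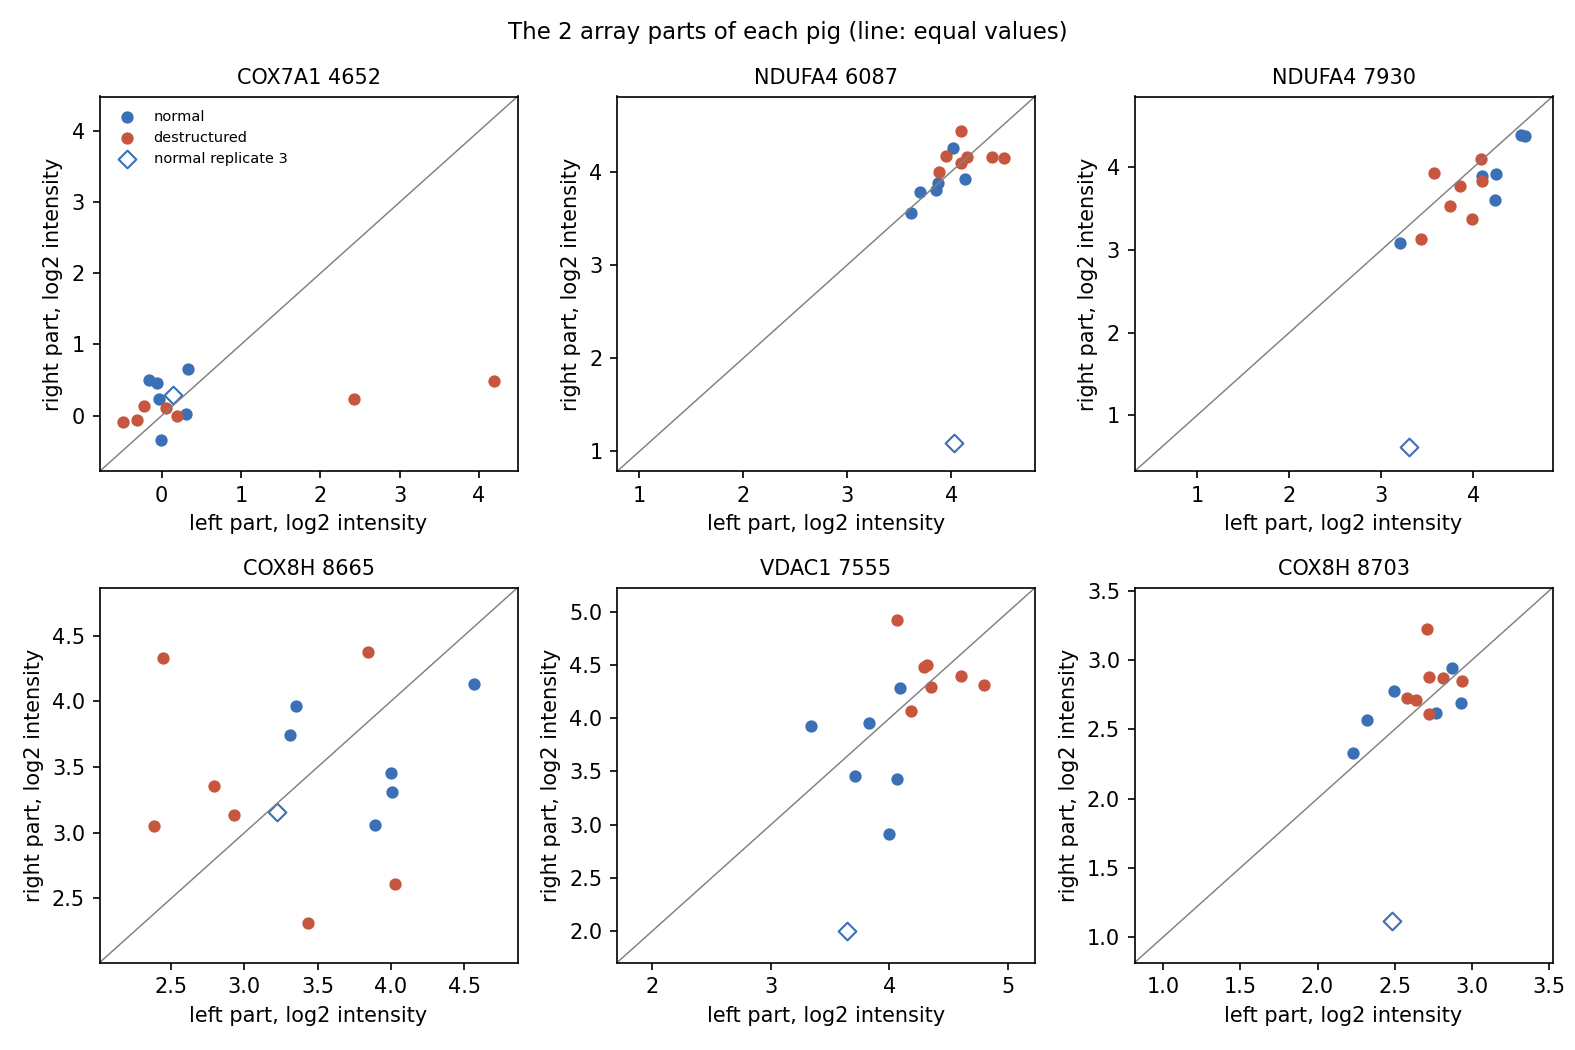
Right against left array part (log2 intensity, quantile normalized) of the 6 probes whose parts differed most in any pig; each point is a pig, blue for normal and red for destructured, the open diamond is normal replicate 3, and the line marks equal values. Normal replicate 3 falls far below the line in VDAC1, COX8H 8703 and both NDUFA4 probes (1.08 on the right against 4.03 on the left in NDUFA4 6087), COX8H 8665 scatters widely, and 2 destructured pigs are high on the left alone in COX7A1 4652.

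NDUFB6, an accessory subunit in the membrane arm of complex I, was measured by probe 6701. Normal pigs ranged from 1.06 to 2.24 with a median of 1.70 and destructured pigs from 1.29 to 1.85 with a median of 1.66. The fold change was -0.13 (SE 0.16), and -0.041 (SE 0.13) with only the left part of normal replicate 3, the pig with the highest value. Normal replicate 4 was the lowest pig, at 1.06.

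Spread between pigs was unequal for many of these probes. In 9 of the 13 the normal group had the larger SD, as did 74% of all probes. With only the left part of normal replicate 3 the share over all probes was 60.9%. The within-group SD of the 13 probes ran from 0.177 for COX7A2 to 0.707 for COX7A1 4652, with a median of 0.316 where all probes had 0.317.

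To see whether the subunits varied together apart from the group difference, each pig's deviation from its group mean was correlated between probes over the 14 pigs. These are descriptions, and the points share arrays and scaling. The 13 pairs of probes listed for the same gene had a median r of 0.10, from -0.68 to 0.84, against 0.0053 over all pairs of probes with 1 symbol. For the 6 COX8H pairs r lay between -0.38 and 0.20, and the COX7A1 pair had 0.24. COX7A1 4652, NDUFA4 5768 and NDUFA4 6512 were among the dimmest 25% of all probes, so same-gene pairs with them include a low signal. No COX8H probe was that dim. The 65 pairs of different genes had a median of 0.035.

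The 3 highest values were lower without 1 array part. NDUFA4 6087 and 7930 correlated at 0.84, VDAC1 and NDUFA4 6087 at 0.84, and VDAC1 and COX8H 8703 at 0.78. With the left part alone for normal replicate 3 these were 0.18, 0.42 and 0.44. The median of the same-gene pairs was then -0.0062, with the highest at 0.43 and 6 of the 13 positive. Between different genes the highest was then NDUFA4 7930 with NDUFB6, at 0.70 (0.73 with position medians removed as well), where all columns gave -0.12.

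**Figure D5:**
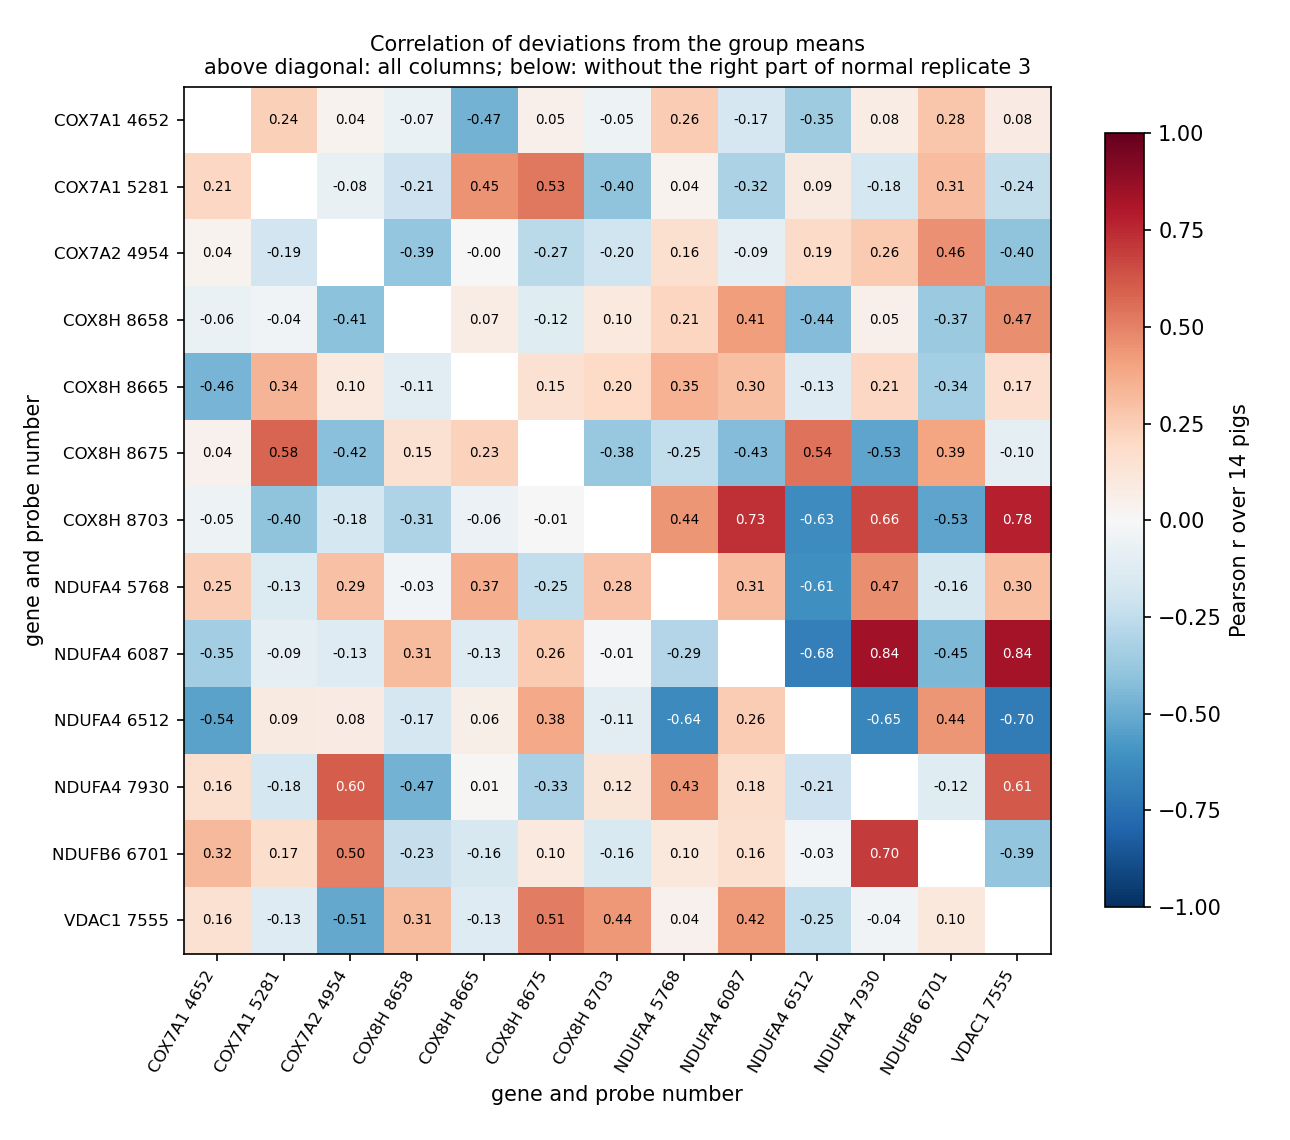
Pearson r over 14 pigs between the deviations of 2 probes from their group means (colour and number, from -1 in blue to 1 in red; both axes list gene and probe number). Cells above the diagonal use all columns and cells below leave out the right part of normal replicate 3; the red cells joining VDAC1, NDUFA4 6087, NDUFA4 7930 and COX8H 8703 above the diagonal (0.84 for NDUFA4 6087 with 7930) are paler below it (0.18).

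By the same measure, over 14 pigs and among the 508 probes with 1 symbol of another gene, VDAC1 was most like the probe 8222 listed for the muscle creatine kinase CKM (r = 0.88), the probe 8647 listed for the uncoupling protein UCP3 (0.84) and NDUFA4 6087 (0.84). With the left part alone for that pig these values were 0.64, 0.53 and 0.42, and with position medians removed as well 0.37, 0.50 and 0.0079. The brightest probe of each other gene was most like a probe listed for TNNC2 (COX7A1, 0.73, and COX7A2, 0.73), RACK1 (COX8H, 0.81), PSP-I (NDUFA4, 0.94) and MYLPF (NDUFB6, 0.83). Of these, COX7A2 with TNNC2 changed least, at 0.69 without the right part and 0.71 with both changes, NDUFA4 with PSP-I was at 0.54 under both, and COX8H with RACK1 was at 0.69 without the right part and 0.25 with both changes. No first-named probe kept its place. For each of the 6 genes another probe came first with either change alone. For COX7A2 it was a probe of RPS3 (0.84, position medians removed) or of ENO3 (0.78, without the right part). Each first-named value is the highest of 505 to 508.

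Other mitochondrial genes among the probes with 1 symbol were few. The genes of the 4098 probes without a symbol are not known here. Below, measured means found among the probes with 1 symbol. Of 45 listed complex I genes 2 were measured and of 21 complex IV genes 3, all of them described above, with NDUFA4 counted under complex I as first described; no gene of complex II or of complex III and cytochrome c was. ATP synthase, which makes ATP from the proton gradient, had 4 of 34 listed genes. With the brightest probe per gene 3 were positive and 1 negative, with a median fold change of 0.24, and none of their 5 probes passed. Of the positive ones ATP5J2 was at 0.0033 (SE 0.18). The positive ones lie in table columns 6 and 7, where all probes had medians of 0.088 and 0.16. The negative one, ATP5G2, lies in column 12, with a median of -0.16. ATP5O had the smallest p, at 1.71 ± 0.559 in normal and 2.29 ± 0.405 in destructured pigs (SD, n = 7 each), a fold change of 0.58 (SE 0.23, limma adjusted p = 0.277). Like VDAC1 it lies in table column 7.

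Among channels, carriers and the mitochondrial creatine kinase 4 of 19 genes were measured with 9 probes, and VDAC1 was the 1 that passed. UCP2, a carrier of the inner membrane, was at 1.93 ± 0.325 in normal and 1.56 ± 0.227 in destructured pigs (SD, n = 7 each; log2 fold change -0.37, SE 0.15, limma adjusted p = 0.295). The 5 probes of UCP3 were all positive, from 0.061 to 0.42, except that 8646 turned to -0.0073 with median centring, and the 2 of the kinase CKMT2 negative. Of the list for mitochondrial biogenesis PPARD alone was measured (0.22, SE 0.13). For fatty acid oxidation and the citric acid cycle 10 of 37 genes were measured, 3 positive and 7 negative with a median of -0.24 (2 and 8 with median centring), none passing. HADHA, of fatty acid oxidation, had the smallest p (-0.51, SE 0.17, limma adjusted p = 0.161). UCP2 lies in table column 1 and HADHA in column 11, where the median fold changes of all probes were -0.17 and -0.17.

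No probe of the fibre type markers passed. The summed level of the 6 measured of 9 slow fibre markers had a log2 value from 4.81 to 5.68 with a median of 5.07 in normal pigs and from 4.93 to 5.28 with a median of 5.09 in destructured pigs. For 7 of 12 fast fibre markers it ran from 6.05 to 7.45 with a median of 7.25 and from 7.08 to 7.50 with a median of 7.22. With the brightest probe per gene, 6 of the 7 fast markers had positive fold changes, with a median of 0.21, and 4 of the 6 slow markers, with a median of 0.0092 (2 of 6 and -0.043 with median centring). Of all 91 probes listed for the fast markers, however, more were negative than positive. The same held for all probes with 1 symbol (301 of 509 negative). Probes of the fast marker MYLPF ran from -0.47 to 0.50. The 2 measured of 7 adipocyte markers had medians of 3.65 and 3.84, and the 3 of 9 connective tissue markers 4.27 and 3.88, in normal and destructured pigs; 3 of 5 immune markers stood at 3.27 and 3.14 and the 1 of 4 endothelial markers at 0.0095 and -0.19. None of the 4 blood markers was among the probes with 1 symbol. Whether these levels have a part in the values of the 13 probes was not tested.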

How the data were processed

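RNA of 14 pigs was measured on radioactive nylon cDNA arrays, quantified with BZscan on a grid of fixed spot size, per the series' design text. The authors deposited intensity values per spot, not on a log scale (4608 probes, 28 columns, 0.0393 to 443.3). Background correction, and whether spots were divided by their signal from the first probing with a T7 oligonucleotide that the protocol in the labels describes, are not given in the sources used here. Log2 values were quantile normalized, parts averaged per pig, and destructured compared with normal by limma 3.58.1 (R 4.3.3) over all probes, with Benjamini-Hochberg adjustment at 0.05, no filter and the group as the only term; the labels state no test. The fit was also run on simulated data with independent noise for each probe and pig. Those data held no position effect, no disagreeing array part and no unequal spread of the groups, so they cannot show how the fit handles these. Every probe of the 6 genes was described. Per mitochondrial list, the brightest probe per gene gave medians and the non-member with the smallest p was named; likeness used the brightest probe of each gene. Members, lists, tests and alternatives were chosen with earlier results of these data known. The annotation named 509 probes singly and 1 with several symbols; 4098 are unnamed. The Entrez identifiers of all 6 genes were found in the RefSeq table. Figures used matplotlib 3.10.9.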

Additional observations from a re-analysis of the deposited data

Results flagged for a closer look

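Among 26 sets of 7 pigs (13 probes in 2 groups), 2 held a pig set apart from its group by an unusual share of the whole range; chance gives about 1 in 20. Both were normal replicate 3. Its NDUFA4 probe 6087 stood at 2.55, with the nearest normal pig at 3.58 (gap 0.650 of the range), and its NDUFA4 probe 6512 at 0.73, with the nearest at 0.11 (gap 0.643 of the range). The right part of its array read 1.08 for probe 6087 and 1.20 for probe 6512, and the left part 4.03 and 0.27.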

How the results depend on the processing

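The VDAC1 probe was higher in destructured muscle in all 29 alternatives, with fold changes from 0.43 to 1.03, and passed in 10 (limma adjusted p from 0.00774 to 0.262). It did not pass, and 0 of the 13 probes did, on the deposited scale (1.03), with median centring (0.81), from the left (0.55) or right part only (1.01), with position medians removed (0.48), with that and normal replicate 3 read from its left part alone (0.43), without the animals that share a number (0.77), with trend and robust variances (0.78) and with brightness in the fit (0.69). Leaving out 1 pig at a time gave 0.64 to 0.88 for VDAC1, 0 to 1 passing probe of the 13 and 2 to 84 of all probes. Over all probes 30 passed; the same settings gave 2, 6, 13, 1, 5, 17, 3, 6 and 1. More passed without the dimmest 25% (49) and 50% of probes (56), with normal replicate 3 read from its left part (135), with array weights (129), with 1 added before log2 (53) and at an adjusted p of 0.10 (111). The replicate block, which takes the label number for the array part as a block and the pig as a random block, gave 107 over all probes and 1 of the 13, with VDAC1 at 0.78; the number pairs no pigs across groups. Of the other 12 probes none passed in any alternative. Signs held throughout for COX7A1 5281, COX8H 8665, 8675 and 8703 and NDUFA4 6087, and changed in 13 of 27 alternatives for NDUFA4 5768, 10 of 29 for NDUFA4 7930, 5 of 28 for COX7A2, 2 of 27 for COX7A1 4652, 2 of 29 for COX8H 8658, 1 of 27 for NDUFA4 6512 and 1 of 29 for NDUFB6. On the deposited scale the median fold change of all probes was 0.21, where the reported fit had -0.021. The filters on dim probes removed COX7A1 4652, NDUFA4 5768 and NDUFA4 6512, the stricter one COX7A2 too. Why values and counts moved between these settings was not tested. The number of arrays limits the precision.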
